A study of Mus musculus with 26 samples.

Results

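After 24 hr of ozone (O3), gene expression in the left lungs of mice without interleukin-10 (IL-10) was set against that of wild type mice. Of the 26 arrays of the series, 5 were used. They were replicates 1 and 3 of the Il10-/- group and replicates 1, 2 and 3 of the Il10+/+ group, both kept in O3 at 0.3 ppm for the 24 hr. The Il10-/- mice were of strain B6.129P2-Il10tmlCgn/J, spelled here as in the labels, and the Il10+/+ mice of strain C57BL/6. All were males of 6 to 8 weeks, and O3 was given for 23.5 hr of each day. Another array of the Il10-/- group, replicate 2, was left out because genes of lung epithelium were low on it, so the arrays were chosen by measured values. Epithelial genes stayed in the fit over all genes, and only their values are given here, with no test. The other 20 arrays, 4 of each genotype in filtered air and 3 of each at 48 hr and at 72 hr of O3, were used to estimate the spread of each gene and for comparison with other exposures. Whether each array came from a separate mouse was not given in the sources used here, so p-values measure the spread between arrays, which may be technical. The source name of Il10-/- replicate 1 ends in the letter c, whose meaning was not given.

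IL-10 is a cytokine made by macrophages, T cells and B cells that limits inflammation. It binds a receptor that activates the kinases JAK1 and TYK2 and the transcription factor STAT3, and in macrophages it lowers the output of cytokines such as IL-1 and TNF. In the lung, O3 is known for injury to the airway lining and for recruitment of neutrophils. The strain name records that the Il10 mutation was made in another strain and moved onto the C57BL/6 background. A line made in this way can keep DNA of the donor strain around the mutated gene, and loss of Il10 and such flanking DNA cannot be told apart in this design.

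All values are log2 signals after Robust Multichip Average (RMA) normalization, 1 probe set for each of 12394 genes, and all differences are Il10-/- minus Il10+/+ on that log2 scale. The surfactant genes Sftpb and Sftpc, of the kind the choice of arrays rests on, were at 5.19 and 6.36 on Il10-/- replicate 2, and over the 25 arrays kept they lay between 13.19 and 13.65 and between 14.29 and 14.48. At 24 hr of O3 the Il10-/- arrays resembled each other less than they resembled the Il10+/+ arrays. Pearson's r across all probe sets was 0.9645 between Il10-/- replicates 1 and 3, and it lay between 0.9785 and 0.9834 for the 6 pairs of an Il10-/- and an Il10+/+ array and between 0.9882 and 0.9921 among the Il10+/+ arrays. Between the Il10-/- arrays 1050 genes differed by over 1, which is 8.47% of those tested, against 77 to 149 genes between Il10+/+ arrays. The difference between probe sets at the 3′ and 5′ ends of a transcript, a sign of RNA integrity, overlapped between the groups: for Gapdh it was 0.21 and 0.20 on the Il10-/- arrays and 0.38, 0.50 and 0.14 on the Il10+/+ arrays.

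At 24 hr of O3, 21 genes were higher and 61 lower in Il10-/- than in Il10+/+ lungs at an adjusted p under 0.05, which is 0.169% and 0.492% of the genes tested. Il10 itself, the protease gene Ctse and genes known from neutrophils and other myeloid cells led the higher genes. The lower genes were led by the sialyltransferase gene St8sia4 and by Rbm25, Rad50 and Mtm1. The higher genes differed by 0.44 to 3.40 and the lower ones by -0.52 to -2.33, with 9 and 23 of them past 1 in size. For all 21 and all 61 the 2 Il10-/- arrays lay beyond the 3 Il10+/+ arrays, with gaps of 0.19 to 3.11 for the higher and 0.15 to 1.84 for the lower genes. Over all genes tested, the Il10-/- arrays lay above all Il10+/+ arrays for 12.2% and below them for 8.63%. At an unadjusted p under 0.05, 689 genes (5.56%) were higher and 834 (6.73%) lower.

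These calls rest on the spread pooled over all groups. When the fit held no other arrays than these 5, 1 gene passed, Il10 (adjusted p = 0.021), and 667 passed at an unadjusted p under 0.05. With array weights, which count variable arrays less and gave both Il10-/- arrays a weight of 0.23, the lowest of the 25, no gene passed (lowest adjusted p = 0.157), and 463 passed at an unadjusted p under 0.05. Without Il10-/- replicate 1 the count was 606 and without Il10-/- replicate 3 it was 1003, where the spread of the 1 array that remains is taken from the other groups, and without Il10+/+ replicate 1, 2 or 3 it was 23, 22 or 26. An exact permutation test of 2 arrays against 3 cannot go below a two-sided p of 0.2.

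**Figure D1:**
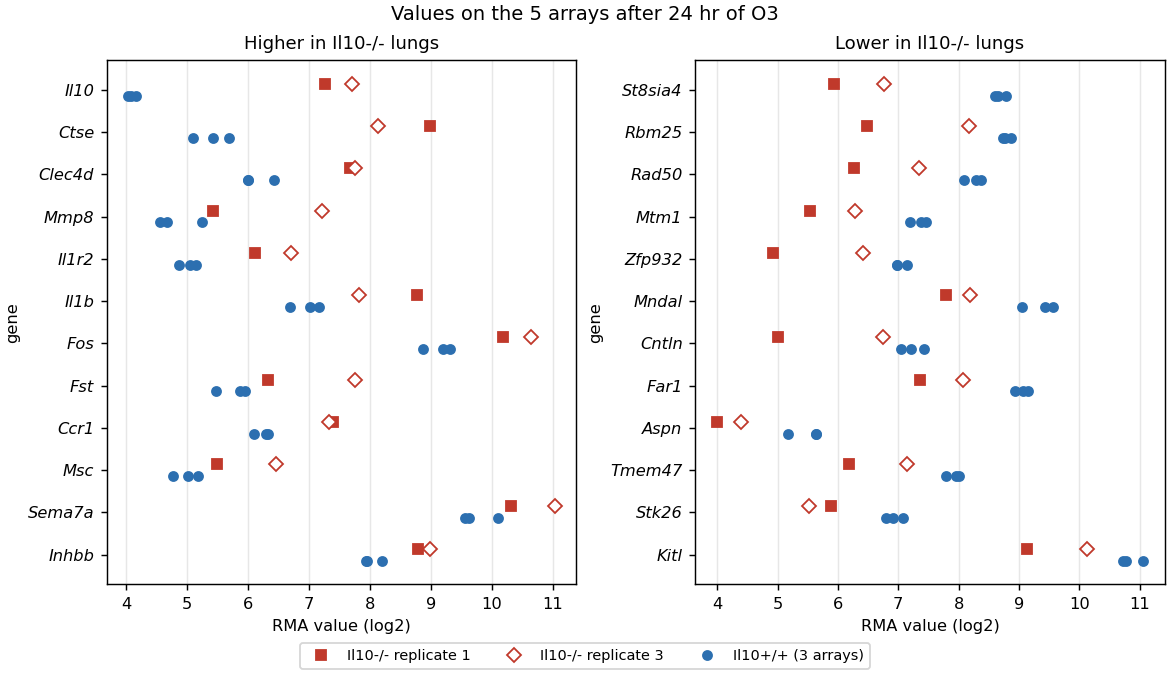
RMA values (log2, x axis) of the 12 genes with the largest rise and the 12 with the largest drop among those called (y axis), for Il10-/- replicate 1 (filled squares), Il10-/- replicate 3 (open diamonds) and the 3 Il10+/+ arrays (blue circles) at 24 hr of O3. For Il10 the Il10-/- arrays are at 7.26 and 7.71 and the Il10+/+ arrays between 4.03 and 4.15, and in every row the Il10-/- symbols lie outside the Il10+/+ range.

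The Il10 probe set, which reports on the targeted gene, was at 7.26 and 7.71 on the Il10-/- arrays, against 4.03, 4.08 and 4.15 on the Il10+/+ arrays. The Il10-/- arrays were thus higher, by 3.40 (SE 0.476, adjusted p = 0.0015). The Il10+/+ mean lay near the lower end of the scale, with 5.45% of the genes tested below it, and no detection calls were used here, so the size of this difference may understate the change and its rank among genes is not informative. Which part of the transcript the probe set reads is not given in the sources used here, and a probe set outside the disrupted part says nothing about whether the protein was made. Over the whole series, the 13 Il10+/+ arrays lay between 3.92 and 4.25. The library labelled Il10-/- air 48 hr replicate 1 was at 3.87, just below them, unlike the other Il10-/- arrays, which were all above them.

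Ctse, which encodes cathepsin E, an aspartic protease of the endosomes of antigen-presenting cells, was at 8.98 and 8.14 in Il10-/- lungs, against 5.68, 5.43 and 5.10 in Il10+/+ lungs. The difference was 3.15 (SE 0.552, adjusted p = 0.00965). It was the only gene called among 17 measured genes of MHC class II and antigen presentation, and the median difference of that list was -0.23. Another probe set of Ctse differed by 0.09 (unadjusted p = 0.828), so the difference was seen with 1 of 2 probe sets.

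Genes known from neutrophils, monocytes and macrophages were among the higher genes. Clec4d, a C-type lectin receptor of neutrophils and monocytes, was at 7.67 and 7.75 in Il10-/- lungs, against 6.42, 5.99 and 6.00 in Il10+/+ lungs (difference 1.57, SE 0.304, adjusted p = 0.0188). Ccr1, a receptor for inflammatory CC chemokines, was at 7.39 and 7.32, against 6.32, 6.10 and 6.30 in Il10+/+ lungs (difference 1.12, SE 0.224, adjusted p = 0.0208). The Il10-/- arrays were close to each other for both genes, and Ccr1 was the only gene called of 21 measured CC chemokines and receptors. Mmp8, the collagenase of neutrophil granules, was at 5.42 and 7.22, against 5.24, 4.55 and 4.66 in Il10+/+ lungs, so that replicate 3 carries most of its difference of 1.51 (adjusted p = 0.0483). Fcgr3, a low-affinity receptor for IgG on myeloid cells, was at 8.63 and 8.48, against 7.81, 8.03 and 8.02 (difference 0.60, SE 0.113, adjusted p = 0.0158). Litaf, a gene induced by endotoxin in macrophages, was at 10.84 and 10.49, against 10.23, 10.13 and 10.22 (difference 0.47, adjusted p = 0.0415).

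Of 14 measured neutrophil markers, 2 were called, Clec4d and Mmp8, both higher, and the median difference was 0.46, against 0.02 over all genes. For 8 of the 14 the Il10-/- arrays lay above all Il10+/+ arrays and for none below, against 12.2% and 8.63% of all genes. Of all genes tested, 0.169% were called higher. S100a8, one chain of the alarmin calprotectin, was at 10.89 and 11.24 in Il10-/- lungs, against 10.15, 8.17 and 8.72 in Il10+/+ lungs (difference 2.05, adjusted p = 0.102). S100a9, the other chain, was at 11.27 and 12.08, against 10.52, 8.60 and 9.46 (difference 2.15, adjusted p = 0.102). The Il10+/+ arrays spread widely for both genes, with replicate 1 the highest, and neither passed the test. The markers of neutrophil precursors Elane and Mpo stayed near the lower end of the scale, between 4.10 and 4.52 on the Il10-/- arrays and between 4.06 and 4.36 on the Il10+/+ arrays. In whole lung, a larger number of cells of a type and more RNA per cell cannot be told apart. None of 18 measured markers of macrophages and monocytes passed, and their median difference was 0.14.

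In the IL-1 family, 2 of 14 measured genes were called and both were higher, against 0.169% of all genes called higher. For 3 of the 14 the Il10-/- arrays lay above all Il10+/+ arrays and for 1 below, against 12.2% and 8.63% of all genes. Il1r2, the decoy receptor that binds IL-1 without signaling, was at 6.11 and 6.70 in Il10-/- lungs, against 5.05, 4.86 and 5.15 in Il10+/+ lungs (difference 1.39, SE 0.182, adjusted p = 0.0015). Il1b, which encodes the secreted cytokine IL-1β, was at 8.78 and 7.82, against 7.16, 7.01 and 6.68 (difference 1.35, SE 0.312, adjusted p = 0.0483). Il1b was higher on replicate 1 and Il1r2 on replicate 3. Il1rn, the receptor antagonist, was high on replicate 1 alone, at 7.77 and 6.27 in Il10-/- lungs, against 6.41, 6.40 and 6.75 in Il10+/+ lungs. Il1a (4.57 and 4.45, against 4.16, 4.57 and 4.40) and Il33 (10.74 and 9.93, against 10.09, 10.63 and 10.27) overlapped between the groups. The median difference of the family was 0.02.

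Il1r2 had the lowest p of all genes tested, and its promoter is shown for that reason. The window lies around the gene's start in RefSeq's annotation of GRCm38.p6, chr1:40085843-40086142, plus strand, and capitals mark the single match to TTCNNNGAA, a pattern bound by STAT proteins.
Il1r2: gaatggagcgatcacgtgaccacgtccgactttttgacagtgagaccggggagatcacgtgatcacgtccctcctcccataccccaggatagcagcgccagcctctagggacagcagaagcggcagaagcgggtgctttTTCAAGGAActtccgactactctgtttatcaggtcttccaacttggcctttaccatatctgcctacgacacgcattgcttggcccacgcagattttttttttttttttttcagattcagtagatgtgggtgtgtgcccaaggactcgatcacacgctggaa
Such a match, searched on both strands, was present in 1 of the 17 higher genes with a listed promoter (5.88%), in 3 of 55 lower genes (5.45%) and in 8.47% of all promoters. The kappaB core GGANTTTCC, also searched on both strands, was present in none of the 17, in 1 of the 55 (1.82%) and in 1.23% of all promoters. The shares among the called genes lie near those of all promoters, and a match is a description of the letters only.

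Other genes that rose code for signaling proteins, regulators of growth factors and stress proteins. Fos, an immediate early gene and a subunit of the AP-1 factor, was at 10.19 and 10.64 in Il10-/- lungs, against 8.88, 9.32 and 9.20 in Il10+/+ lungs (difference 1.28, SE 0.24, adjusted p = 0.0157). It was the only one called of 20 measured immediate early genes. Junb was at 9.35 and 9.34, against 8.59, 8.55 and 8.53, and Egr1 at 10.11 and 10.07, against 9.05, 9.32 and 9.32. These 2 did not overlap between the groups but missed the threshold (adjusted p = 0.118 and 0.074). Jun was at 10.51 and 10.47, against 10.59, 10.60 and 10.84. The list had a median difference of 0.20.

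Gadd45g, a stress-induced inhibitor of cell growth, was at 9.55 and 9.29 in Il10-/- lungs, against 8.64, 8.51 and 8.58 in Il10+/+ lungs (difference 0.85, adjusted p = 0.0386). Il4ra, the receptor chain shared by IL-4 and IL-13, was at 9.63 and 9.80, against 9, 8.80 and 8.87 (difference 0.82, SE 0.129, adjusted p = 0.00387), and both other probe sets of this gene were also higher, by 1.02 and 0.33. Cdkn2d, an inhibitor of cyclin-dependent kinases, and Trib3 and Xbp1, both of the unfolded protein response, were higher by 0.70, 0.68 and 0.61. Xbp1 was at 12.08 and 11.99 in Il10-/- lungs, against 11.31, 11.36 and 11.58 in Il10+/+ lungs, and is also 1 of the plasma cell markers, whose median difference over 6 genes was 0.02.

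Among growth factor genes, Fst encodes follistatin, which binds activins, and Inhbb encodes the beta B chain of activin and inhibin. Fst was at 6.33 and 7.75 in Il10-/- lungs, against 5.86, 5.47 and 5.94 in Il10+/+ lungs (difference 1.28, adjusted p = 0.0415). Inhbb was at 8.79 and 8.98, against 8.20, 7.93 and 7.95 (difference 0.86, adjusted p = 0.0413). The Il10-/- arrays were close to each other for Inhbb and 1.42 apart for Fst, with replicate 3 the higher. Msc, the transcription factor musculin, was higher by 0.98 and Sema7a, a membrane-anchored semaphorin, by 0.91, both with replicate 3 the higher. Ahcy, an enzyme of methionine metabolism, and Med4, a subunit of Mediator, complete the 21 genes, with differences of 0.57 and 0.44.

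The 61 lower genes were of mixed function, and most were lower on replicate 1 than on replicate 3. St8sia4, which adds polysialic acid to proteins, was at 5.94 and 6.76 in Il10-/- lungs, against 8.79, 8.66 and 8.60 in Il10+/+ lungs (difference -2.33, SE 0.354, adjusted p = 0.00277). Rad50, of the complex that repairs DNA double-strand breaks, was at 6.26 and 7.35, against 8.29, 8.38 and 8.09 (difference -1.45, SE 0.203, adjusted p = 0.0015). Far1, which makes the fatty alcohols of ether lipids, was at 7.36 and 8.08, against 8.94, 9.15 and 9.07 (difference -1.33, adjusted p = 0.0015). In each of these genes replicate 1 was the lower of the Il10-/- arrays, by 0.72 to 1.09. This held for 56 of the 61 lower genes, where it held for 5485 of the 12394 genes tested (44.3%). The median of the lower genes was -1.19 on replicate 1 and -0.55 on replicate 3 relative to the Il10+/+ mean. Among the 21 higher genes, replicate 1 was the higher in 8.

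**Figure D2:**
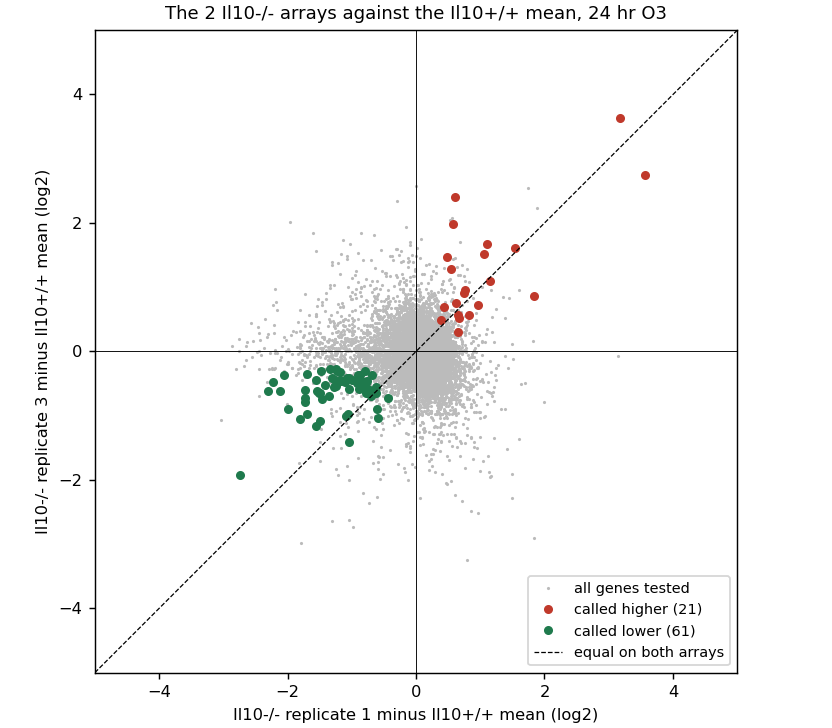
Difference of Il10-/- replicate 1 (x axis) and of Il10-/- replicate 3 (y axis) from the mean of the 3 Il10+/+ arrays at 24 hr of O3 (log2), for all 12394 genes (grey), the 21 called higher (red) and the 61 called lower (green), with equal values on the dashed line. Of the lower genes, 56 are lower on replicate 1 than on replicate 3, and most lie left of the line.

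Rbm25, a splicing factor, was at 6.48 and 8.18 in Il10-/- lungs, against 8.87, 8.77 and 8.74 in Il10+/+ lungs (difference -1.46, adjusted p = 0.0353). Luc7l3 and Zranb2, also proteins of RNA splicing, were lower by -1.01 and -1.16, again with replicate 1 below replicate 3 by over 1. Mtm1, a phosphoinositide phosphatase, was at 5.54 and 6.29, against 7.46, 7.38 and 7.20 (difference -1.43, adjusted p = 0.0326). The zinc finger gene Zfp932 (difference -1.37) and the centrosome gene Cntln (difference -1.35) were at 4.92 and 5.01 on replicate 1 and at 6.41 and 6.75 on replicate 3.

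Some lower genes have roles between cells. Kitl encodes stem cell factor, the ligand of the KIT receptor of mast cells and progenitors, and was at 9.13 and 10.13 in Il10-/- lungs, against 10.73, 10.77 and 11.06 in Il10+/+ lungs (difference -1.22, SE 0.217, adjusted p = 0.0103). Nrp1, a co-receptor of VEGF and semaphorins, was at 10.38 and 10.64, against 11.34, 10.93 and 11.28 (difference -0.67, adjusted p = 0.0398). Mme, the peptidase neprilysin that degrades tachykinins, was at 7.04 and 7.88, against 8.72, 8.47 and 8.42 (difference -1.08, adjusted p = 0.00965). Ramp1, a subunit of the receptor for the peptide CGRP, was at 8.22 and 8.31, against 9.19, 9.47 and 9.18 (difference -1.02, adjusted p = 0.0195). Ramp1 differed little between the Il10-/- arrays, unlike most of the lower genes. Ptprc, which encodes the leukocyte antigen CD45, was at 9.19 and 9.91, against 10.60, 10.27 and 10.49 (difference -0.91, adjusted p = 0.0415). On the Il10-/- array left out it was at 12.54, and with that array in the fit its difference was 0.09.

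Matrix genes included Postn, which encodes periostin, and Aspn, which encodes asporin. Postn was at 10.60 and 10.31 in Il10-/- lungs, against 11.41, 10.90 and 11.28 in Il10+/+ lungs (difference -0.75, SE 0.134, adjusted p = 0.0108). Aspn was at 3.99 and 4.40, against 5.63, 5.64 and 5.17 (difference -1.28, adjusted p = 0.0386), at the low end of the scale in both groups. Postn was the only gene called of 20 measured matrix genes, and the list had a median of 0.32 on replicate 1 and of -0.59 on replicate 3 relative to the Il10+/+ mean. Jak2, a kinase of cytokine receptors, was lower by -0.63 (8.10 and 8.64, against 8.99, 9.15 and 8.88, adjusted p = 0.0386).

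Of the 82 genes, 44 had further probe sets, 74 in all. In 62 of these the sign of the difference was that of the probe set used, and for 31 of the 62 the unadjusted p was under 0.05. None of the rest had an unadjusted p under 0.05. Mndal, an interferon-inducible gene of the p200 family, was lower with both of its probe sets, by -1.36 and -1.58. The further probe sets of Rad50, Rabgap1l and Stk26, with mean levels of 4.01, 4.85 and 4.59, differed by 0.05, 0 and -0.17. Those of St8sia4 and Ccr1, with mean levels of 4.83 and 3.85, differed by -0.24 and 0.12. For Rbm25 the further probe sets differed by -1.09, -0.44, 0.20 and 0.25.

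Genes that read out signaling by IL-10 and its partners varied without passing the test. Of 13 measured genes of IL-10 receptor and STAT3 signaling, Il10 alone was called, and the median difference of the list was 0.33. The Il10-/- arrays lay above all Il10+/+ arrays for 7 of the 13 and below for 1, against 12.2% and 8.63% of all genes. Il10 itself was 1 of the 7. Socs3, a feedback inhibitor induced by STAT3, was at 10.39 and 10.06 in Il10-/- lungs, against 9.66, 9.22 and 9.51 in Il10+/+ lungs (difference 0.76, SE 0.282, adjusted p = 0.231). Stat3 was at 11.45 and 11.87, against 11.42, 11.27 and 10.95 (adjusted p = 0.372). Cish, another inhibitor of cytokine signaling, was at 9.17 and 9.74, against 8.54, 8.95 and 8.96 (adjusted p = 0.079). The receptor chains Il10ra (5.50 and 4.82, against 5.23, 5.33 and 5.51) and Il10rb (9.88 and 9.99, against 9.81, 9.78 and 9.98) overlapped between the groups. Il10-/- values for Socs3, Stat3 and Cish lay above the Il10+/+ values without overlap, for Stat3 by 0.03.

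Tnf, Il6, Cxcl2, Nos2 and Cd86, all genes of inflammation, did not pass the test. Tnf was at 5.72 and 5.65 in Il10-/- lungs, against 5.41, 5.62 and 5.56 in Il10+/+ lungs, with a difference of 0.16 (SE 0.144). Il6 was at 5.25 and 4.19, against 4.46, 4.48 and 4.30, and Cxcl2, the neutrophil chemokine MIP-2, at 4.61 and 4.31, against 4.41, 4.65 and 4.42. Nos2, the inducible nitric oxide synthase, was at 4.98 and 4.48, against 4.59, 5.00 and 4.61, and Cd86, a costimulatory ligand, at 5.73 and 5.51, against 5.53, 5.45 and 5.47. All values of these 5 genes lay between 4.19 and 5.73, below the medians of the 25 arrays, which were 6.54 to 6.68. At such low signal a lack of difference says little. None of 25 measured genes of TNF and NF-kappaB passed either, with a median difference of 0.04, and Rela was at 10.79 and 10.43, against 10.68, 10.70 and 10.50.

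The acute phase gene Saa3 was high on 1 Il10-/- array. It stood at 10.87 and 7.64 in Il10-/- lungs, against 8.04, 7.36 and 7.76 in Il10+/+ lungs, so that its difference of 1.54 (adjusted p = 0.199) rests on replicate 1. The chemokine Cxcl1 (6.90 and 5.24, against 4.97, 5.14 and 5.13) and the heme carrier Hpx (7.07 and 5.69, against 5.60, 5.53 and 5.58) had the same pattern. None of 18 acute phase genes and none of 11 neutrophil chemokine and growth factor genes was called, and their medians were 0.65 and 0.52 on replicate 1 and -0.04 and -0.05 on replicate 3.

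The Il10-/- arrays differed from each other in several other gene groups. The median of 15 B cell markers was -0.23 on replicate 1 and -0.95 on replicate 3 relative to the Il10+/+ mean, that of 16 circadian clock genes -0.64 and 0.13, and that of 12 glucocorticoid targets -0.21 and 0.58. Fkbp5, a classical glucocorticoid target, was at 8.61 and 10.02 in Il10-/- lungs, against 7.98, 7.97 and 8.26 in Il10+/+ lungs (difference 1.24, adjusted p = 0.0734). Timp1, an inhibitor of matrix metalloproteinases, was at 11.53 and 6.79, against 9.80, 9.74 and 9.54, so that the Il10-/- arrays lay on both sides of the Il10+/+ arrays. None of the lists of mitosis (26 genes), DNA replication (29), antioxidants and NRF2 targets (26), interferon-stimulated genes (29), complement (16), sterol synthesis (14), heat shock proteins (15) or NADPH enzymes (11) held a called gene. Their median differences lay between -0.14 and 0.23. The highest was that of the interferon-stimulated genes. There the Il10-/- arrays lay above all Il10+/+ arrays for 11 of 29 and below for none, against 12.2% and 8.63% of all genes. Of the 29, 8 were higher at an unadjusted p under 0.05, against 5.56% of all genes. Irf7, a transcription factor of the interferon response, was at 7.65 and 7.84 in Il10-/- lungs, against 7.24, 7.29 and 7.08 in Il10+/+ lungs (adjusted p = 0.141). Mki67, a marker of dividing cells, was at 5.16 and 5.26, against 6.45, 6.68 and 5.91 (adjusted p = 0.158). The mitosis list that holds Mki67 had a median difference of 0.01, with 0.24 on replicate 1 and -0.27 on replicate 3.

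**Figure D3:**
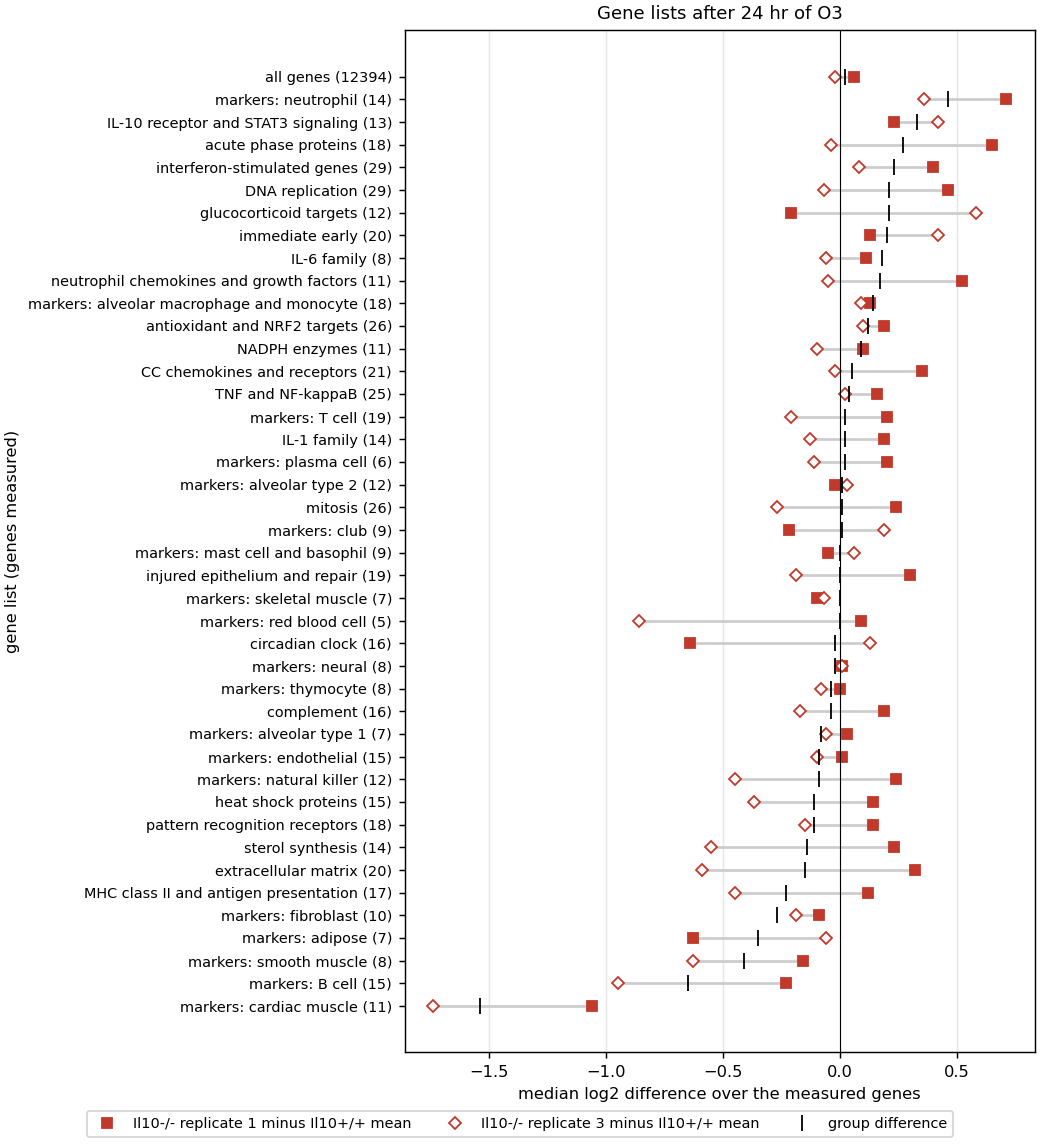
Median log2 difference from the Il10+/+ mean over the measured genes of each list (x axis; lists with gene numbers on the y axis), for Il10-/- replicate 1 (filled squares) and replicate 3 (open diamonds), with the median of the group difference as a black tick. Neutrophil markers lie at 0.71 and 0.36 and cardiac muscle genes at -1.06 and -1.74, whereas for many lists the Il10-/- arrays stand on opposite sides of 0.

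Some lists of markers of other cell types also had medians away from 0. No gene was called in those of cardiac muscle, B cells, smooth muscle, fibroblasts or endothelium. The 11 genes of cardiac muscle, which lines the pulmonary veins of mice, had a median difference of -1.54. In 8 of them the Il10-/- arrays lay below all Il10+/+ arrays, against 8.63% of all genes. Their mean level was 7.23 and 6.62 on the Il10-/- arrays and between 7.37 and 9.71 on the Il10+/+ arrays. Myh6 was at 8.32 and 7.74 in Il10-/- lungs, against 9.09, 10.89 and 8.72 in Il10+/+ lungs, where replicate 2 was the highest. Markers of B cells had a median difference of -0.65 (15 genes) and a mean level of 6.59 and 5.84, against 6.67 to 7.30 in Il10+/+ lungs. For 7 of the 15 the Il10-/- arrays lay below all Il10+/+ arrays and for 0 above. The median difference of these markers was also negative elsewhere, at -0.64 in air, -0.46 at 48 hr and -0.64 at 72 hr. Cd79a was at 7.71 and 6.46, against 9.22, 7.63 and 8.04. Smooth muscle markers had a median of -0.41 (8 genes) and fibroblast markers of -0.27 (10 genes). The medians for endothelial markers (15 genes) and, as values only, alveolar type 1 markers (7 genes) were small, at -0.09 and -0.08. The part of cell composition in the called genes was not tested.

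The genotype difference at 24 hr was set beside those in air and at 48 and 72 hr, which come from other arrays. The genes called there were 1 at 48 hr (0.00807%, Il10), 3 at 72 hr (0.0242%, Il10, Ctse and Wdfy1) and 1 in air (0.00807%, Wdfy1). When the library labelled Il10-/- air 48 hr replicate 1 was removed, these counts were 69 at 24 hr, 8 at 48 hr, 6 at 72 hr and 16 in air. With array weights their order turned round, with 0 genes at 24 hr, 8 at 48 hr, 13 at 72 hr and 111 in air. Of the 61 genes lower at 24 hr, 59 had a negative difference in air, 60 at 48 hr and 53 at 72 hr, where 55.8%, 55.3% and 55.6% of all genes did. Their median difference was -0.82 at 24 hr and -0.21, -0.19 and -0.11 in air and at 48 and 72 hr. Of the 21 genes higher at 24 hr, 16, 16 and 18 had a positive difference in air and at 48 and 72 hr. Over all genes the shares were 44.2%, 44.7% and 44.4%. The median of the 21 was 0.91 at 24 hr and 0.11, 0.23 and 0.20 elsewhere.

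The values of single genes at the other exposures are given next, and of these only Wdfy1 in air and Ctse and Wdfy1 at 72 hr passed the test. St8sia4 differed by -1.26 in air, -1.20 at 48 hr and -1.30 at 72 hr (adjusted p = 0.158, 1 and 0.617), and Ctse by 1.73, 2.45 and 2.84 (adjusted p = 0.242, 0.195 and 0.0424). Wdfy1, a protein of early endosomes, was at 7.92 and 7.85 in Il10-/- lungs at 24 hr, against 6.65, 6.61 and 6.98 in Il10+/+ lungs (difference 1.14, adjusted p = 0.074), and differed by 1.52 in air, 1.50 at 48 hr and 1.74 at 72 hr (adjusted p = 0.0124, 0.0533 and 0.0065). Nnt, the mitochondrial transhydrogenase that supplies NADPH, was at 9.03 and 8.53, against 7.59, 7.68 and 7.78 (difference 1.10, adjusted p = 0.0647), with differences of 0.93, 1.15 and 1.29 at the other exposures (adjusted p = 0.186, 0.235 and 0.0725). Pam, which amidates peptide hormones, was at 7.78 and 7.11, against 6.52, 5.56 and 6.41 (difference 1.28, adjusted p = 0.149), with 1.23, 1.26 and 1.11 (adjusted p = 0.249, 1 and 1). The air values include the library labelled as an Il10-/- air array whose Il10 was as low as on the Il10+/+ arrays. Without it the air differences were 2.43 for Ctse, -1.51 for St8sia4, 1.86 for Wdfy1, 1.26 for Nnt and 1.68 for Pam, and all 5 passed the test (adjusted p = 2.65e-06, 0.018, 1.54e-07, 2.65e-06 and 0.00131). Il1r2 differed by -0.01 in air, 0.56 at 48 hr and 0.50 at 72 hr, Fos by 0.24, -0.19 and -0.08, and Kitl by -0.16, -0.16 and -0.11, none of which passed.

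Whether the difference at 24 hr was itself unlike that at other exposures was tested as an interaction. No gene passed against air (890 at an unadjusted p under 0.05) and none against the mean of 48 and 72 hr (764 at an unadjusted p under 0.05). The interaction with air was 1.39 for Il1r2 (SE 0.231, adjusted p = 0.0659), the lowest adjusted p among the 82 genes, and 1.04 for Fos (adjusted p = 0.48). Without the doubted air library it was 1.31 for Il1r2 (adjusted p = 0.0866), and 1 gene passed, Chil1, with 1.63 (SE 0.251, adjusted p = 0.0327). Chil1 differed by -2.64 in air in that fit, so its positive interaction stands for a less negative difference at 24 hr. Each genotype's own change from air is given for the same genes without a test between them, and these changes share arrays with the comparison above. In Il10-/- lungs the median change of the 21 higher genes from air was 1.05, and in Il10+/+ lungs it was 0.01. For the 61 lower genes these medians were -0.74 and -0.09.

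**Figure D4:**
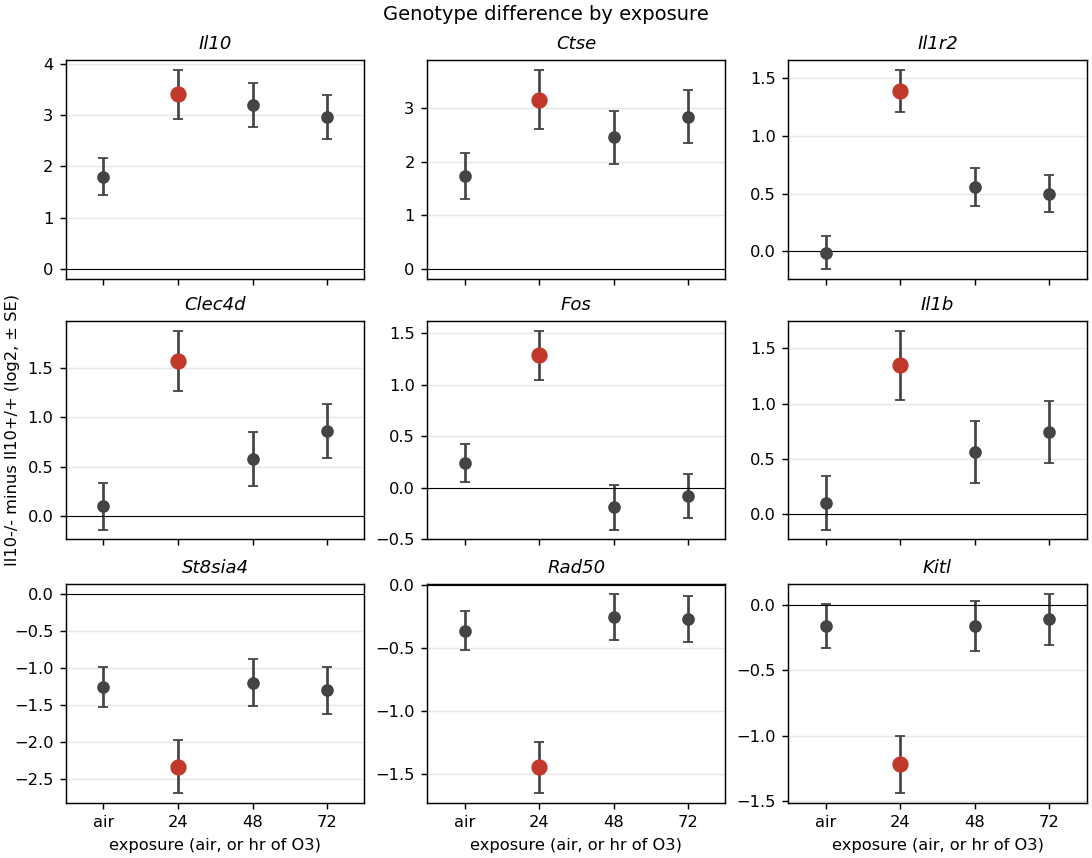
Il10-/- minus Il10+/+ difference (log2, y axis, own scale in each panel) in air and at 24 hr (red), 48 hr and 72 hr of O3 (x axis) for 9 genes, with bars of 1 standard error from the fit. Il1r2 is at 1.39 at 24 hr and at -0.01 in air, and St8sia4 is negative at all 4 exposures, at -2.33 at 24 hr.

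Of the 82 genes, 12 lay on chromosome 1, which holds Il10. Of the 708 genes tested there, 1.69% were called, against 0.599% of the genes elsewhere. By the gene order of GRCm38.p6, Ctse was the nearest called gene, 8 tested genes beyond Il10. Inhbb, St8sia4 and Ramp1 followed on 1 side at 36, 57 and 87 tested genes, and Ptprc, Rabgap1l, Fcgr3 and Mndal on the other at 64, 123, 177 and 228. Il1r2, Msc and Lactb2 were farther, at 290, 357 and 359. Rabgap1l, which acts on the small GTPases of endosomes, was at 7.79 and 9.48 in Il10-/- lungs, against 9.82, 9.96 and 9.76 in Il10+/+ lungs, and Lactb2, a mitochondrial nuclease, at 7.01 and 7.44, against 7.97, 7.78 and 8.07. Of the 12 genes, 6 were higher and 6 lower. On the X chromosome 6 genes were called, all lower, of 402 tested (1.49%).

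**Figure D5:**
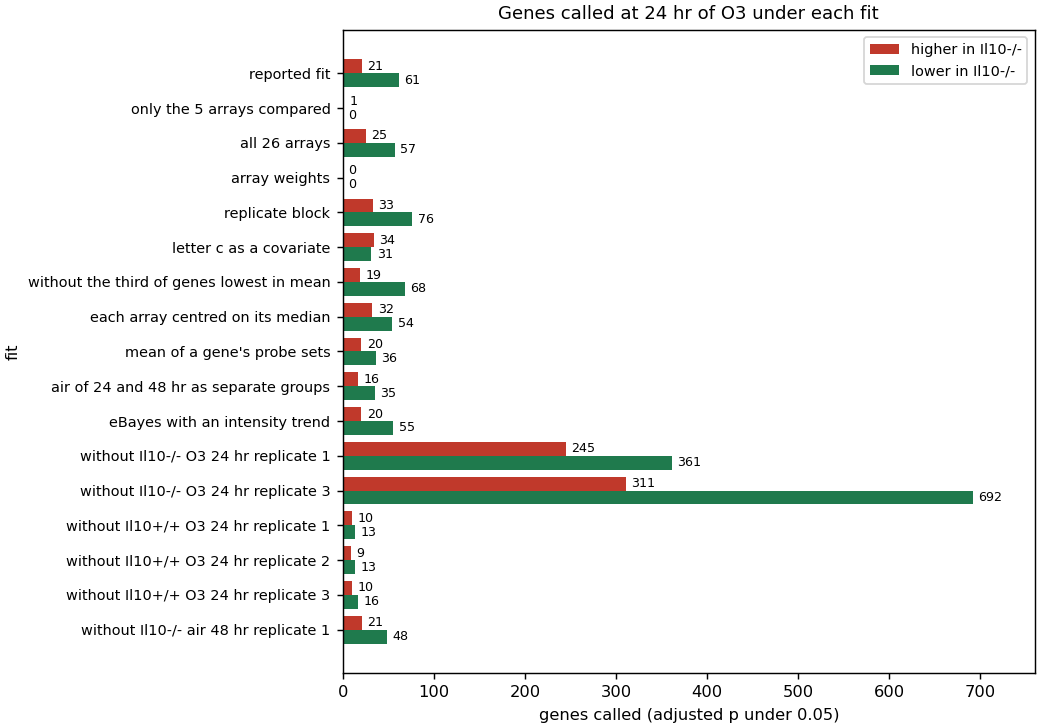
Number of genes called higher (red) and lower (green) in Il10-/- lungs at 24 hr of O3 (x axis, adjusted p under 0.05) in the reported fit and in each alternative (y axis). The reported fit has 21 and 61 genes, no gene passes with array weights, and the fits with a single Il10-/- array have the highest counts.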

How the data were processed

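Expression was measured in left lungs on Affymetrix mouse arrays. The deposited values are log2 signals per probe set, which the authors computed by Robust Multichip Average (background correction, quantile normalization and summary over probes) in RMAExpress. Its version is not given in the sources used here. The values were used as deposited. Probe sets with 1 gene symbol in the platform's annotation were kept (20393 of 22690), and the one with the highest mean over 25 arrays stood for its gene. Chromosomes and promoters are from RefSeq, GRCm38.p6.

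One limma 3.58.1 model in R 4.3.3 held a mean for each group over 25 arrays, with the 24 and 48 hr air arrays of each genotype in 1 group. Empirical Bayes moderation was applied, p-values were adjusted by Benjamini-Hochberg over 12394 genes, and genes under 0.05 were called. SE is the standard error of that fit. The steps were tested on simulated data in which each gene had the same spread in all groups. That test does not cover the wider spread between the Il10-/- arrays compared here. Alternatives changed 1 choice at a time.

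The arrays, genes and lists were chosen with earlier results of these data known. Genes were named by rule: the 12 largest called genes in each direction, the 3 largest called members of each list or, where none was called, the 2 largest as values, genes the paper names, and called genes of chromosome 1. Some genes named by rule, mostly uncalled list members, are not printed above. Of the genes the paper names, S100a14 was at 7.23 and 6.04 in Il10-/- lungs, against 6.31, 6.42 and 6.25 in Il10+/+ lungs. Hat1 was at 7.71 and 7.48, against 7.25, 7.66 and 7.66. Both overlapped between the groups and did not pass (adjusted p = 0.775 and 0.909). Other genes were named after their values were seen. The number of arrays limits the precision. Nfkb1 had no value here. Plots were made in Python 3.11.15 (matplotlib 3.10.9).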

Additional observations from a re-analysis of the deposited data

Results flagged for a closer look

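The Il10-/- array left out, replicate 2 at 24 hr of O3, carried signal of other cells above the Il10+/+ level. Relative to the mean of the Il10+/+ arrays at 24 hr, the median over its B cell markers was higher by 3.75, over T cell markers by 2.77, over red blood cell markers by 1.69 and over natural killer markers by 1.39. These are values of 1 array, chosen because they exceed 1, and carry no test.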

How the results depend on the processing

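Of 30 called genes named by the rule, all kept their direction in the alternatives run, except that Ptprc differed by 0.09 with all 26 arrays (adjusted p = 0.932). Whether genes passed depended on the fit, and the causes were not tested. At 24 hr, 1 gene was called (1 higher, 0 lower) with only these 5 arrays and 0 (0 and 0) with array weights, which called 8 at 48 hr, 13 at 72 hr and 111 in air. The letter c as a covariate gave 34 higher and 31 lower genes, and 0 in air. Centring each array gave 32 higher, averaging the probe sets of each gene 36 lower, and separate air groups 51 genes, 35 of them lower.

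The replicate numbers link no mice, and deviations of like-numbered arrays had correlations of -0.018 and -0.00018. With the replicate block, 33 genes were higher and 76 lower at 24 hr, 3 passed the interaction with air, 1 the interaction with later exposure, and 3 were called in air.

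Leaving out 1 array of 24 hr gave 22 to 1003 genes, 9 to 311 higher and 13 to 692 lower. The interaction with air had 0 to 557 genes and that with later exposure 0 to 610, 283 and 225 without Il10-/- replicate 1 and 557 and 610 without replicate 3. The lone Il10-/- array is then assumed to vary like other groups. Timp1 differed by 1.84 without Il10-/- replicate 3 and by -2.91 without replicate 1.

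Added after seeing the data, removal of the library labelled Il10-/- air 48 hr replicate 1 left 69 genes at 24 hr and gave 1 in the interaction with air, 8 at 48 hr, 6 at 72 hr and 16 in air. In the other comparisons, leaving out 1 array gave 1 to 8 genes at 48 hr, 2 to 6 at 72 hr and 1 to 18 in air. At 48 hr the count was 0 without the lowest genes, 2 with centring or the mean of probe sets, 4 with separate air groups and 3 with an intensity trend. The mean of probe sets called 3 genes in air and 2 in the interaction with air, and centring 1 in that interaction. The signal of dim probe sets limits small differences.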
